A study of Homo sapiens with 4 samples.

Results

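The mRNAs described here encode the factors that start and carry out the elongation phase of cytoplasmic protein synthesis, together with a few enzymes that modify them. They were taken by symbol, as every gene beginning EIF1 to EIF6, EEF1 or EEF2, without kinases of the EIF2AK family, hyphenated symbols and symbols ending in P and a number. This gave 58 of the 12838 gene symbols in the table, and all 58 are protein coding. By the same rule 7 symbols were left out: EIF2AK1, EIF2AK2, EIF2AK3, EIF2AK4, EIF3J-DT, EIF4EBP1 and EIF4EBP2. The last pair are coding genes for repressors of the cap-binding factor and are given with the translational control genes further on.

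In initiation, eIF2 brings the initiator tRNA to the small ribosomal subunit, eIF3 acts as its scaffold, and eIF4F (the cap-binding protein eIF4E, the scaffold eIF4G and the helicase eIF4A) recruits the mRNA. eIF1, eIF1A and eIF5 govern the choice of start codon, and eIF5B joins the large subunit. In elongation, eEF1A delivers aminoacyl-tRNA, the eEF1B complex recharges it with GTP and eEF2 moves the ribosome along. Many of these mRNAs are abundant, and several belong to the terminal oligopyrimidine (TOP) class, whose translation follows mTOR activity. EXOSC10 is a nuclear exoribonuclease that works with the RNA exosome.

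RNA was recovered by immunoprecipitation from LM2-4175, a breast carcinoma line derived from lung metastases of MDA-MB-231 cells, and sequenced. In all groups the cells held a construct from which doxycycline induces CerS4, a ceramide synthase, and the study's stated primary comparison was EXOSC10-bound RNA with and without the drug. The 4 groups were doxycycline (5 µg/mL, 48 h) with EXOSC10 antibody, untreated with EXOSC10 antibody, doxycycline with control IgG and untreated with control IgG. Each group had 1 library, so a ratio between single libraries has no replicate check and no p-value. No library of total cell RNA is used here, so a ratio of EXOSC10 to IgG is set against what IgG recovered and not against the cells' own level.

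The libraries held between 3723290 and 7575128 estimated reads, of which 56.3% to 83.8% lay on ribosomal RNA genes. This left 2408177 reads on other genes in the doxycycline EXOSC10 library and 1023361 in the untreated EXOSC10 library, against 1229744 with doxycycline and 1052989 untreated in IgG. Of the markers of the line, VIM had 2079 to 4396 reads in every library, ESR1 had no entry in the table, and PGR had at most 15.8 reads. CERS4 had no entry either, so induction of the construct was not analysed here.

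Initiation and elongation factor mRNAs made up a smaller share of the reads outside ribosomal RNA in the EXOSC10 libraries than in the IgG libraries. The 58 genes together took 3.34% of those reads with doxycycline (exact 95% interval 3.31 to 3.36) and 4.25% untreated (4.21 to 4.29) with EXOSC10, against 6.98% with doxycycline (6.94 to 7.03) and 7.02% untreated (6.97 to 7.07) with IgG. EEF1A1 alone held 1.10% and 1.5% of the reads in the doxycycline and untreated EXOSC10 libraries, against 2.78% and 2.79% in the doxycycline and untreated IgG libraries. Without it the shares were 2.24% and 2.76% with EXOSC10, against 4.20% and 4.23% with IgG, in the same order of treatment. Set against all reads, ribosomal RNA included, the order was another: 1.46% in the doxycycline EXOSC10 library and 1.03% in the untreated EXOSC10 library, against 1.13% and 1.99% in the doxycycline and untreated IgG libraries. The intervals here and below cover counting error only, since molecules were not tagged and copies of a molecule count more than once.

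Levels of single genes are given as CPM (reads per 1000000) after TMM scaling (a trimmed mean of M values), which sets the typical gene equal between libraries, so a ratio tells how a gene stood against the typical gene. Deposited CPM without this scaling raises every EXOSC10 over IgG log2 ratio by 2.50 with doxycycline and by 0.82 untreated, and scaling to the reads outside ribosomal RNA raises them by 1.07 and 1.05. Higher or lower is used of a ratio of at least 2-fold with 100 reads or more in its 2 libraries. Transcript lengths were not used, so levels of single genes are not set against each other. Where genes are ranked or grouped by level further on, that level also holds the length of the transcript.

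With doxycycline, 48 of the 58 genes reached 100 reads in the EXOSC10 and IgG libraries together. On the TMM scale 22 were lower with EXOSC10, where 27% of all 6271 genes were lower, and 19 of the 22 stood above 0 with deposited CPM, EIF4E, EIF4G2 and EIF2S3B being the exceptions. EIF2B1 was the only 1 higher, at a log2 ratio of 1.25 (95% interval 0.37 to 2.41), where 13.3% of genes were higher. The median log2 ratio was −0.82 over the 48, against 0.01 over all genes. In untreated cells 41 genes reached 100 reads. Of these 16 were lower, and EEF1A2 and EIF3H were higher, shares near the 36.9% and 4.96% of 3606 genes. Their median was −0.89, against −0.48 over all genes. All 16 genes that were lower untreated were also lower with doxycycline, as were 1135 of the 1332 genes lower untreated among all genes. Thus 16 of 41 factor genes with 100 reads in both treatments were lower in both, beside 31.7% of 3586 genes. These 16 stayed below 0 in untreated cells with deposited CPM and with scaling to the reads outside ribosomal RNA.

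**Figure D1:**
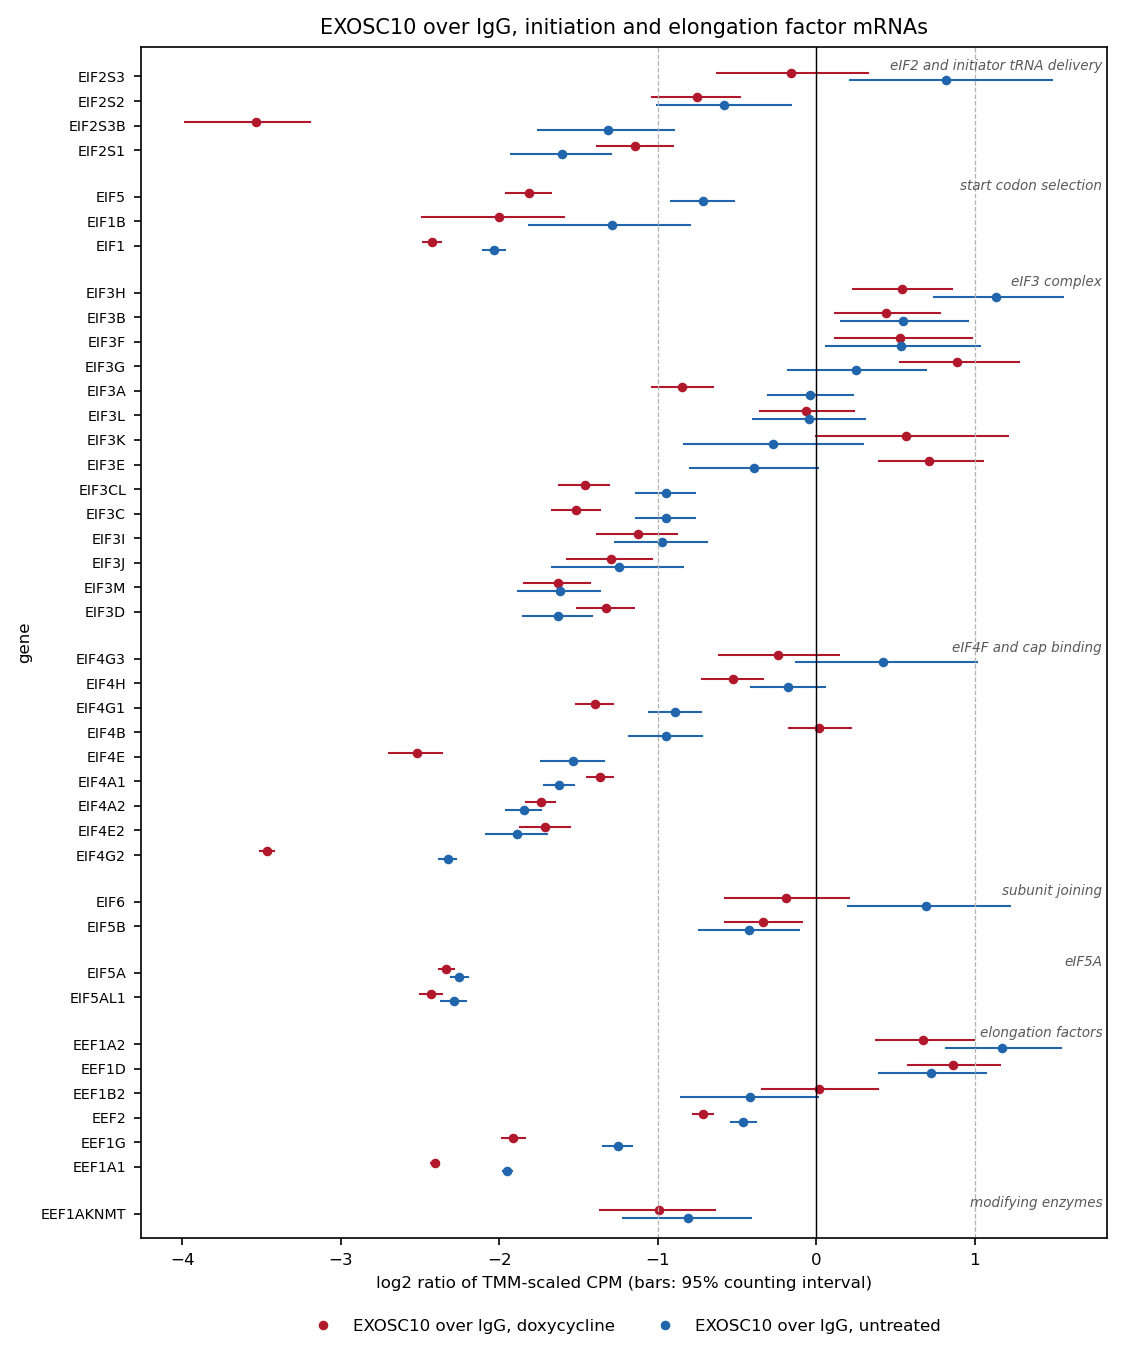
Log2 ratio of TMM-scaled CPM, EXOSC10 over IgG, with doxycycline (red) and untreated (blue), grouped by role. Shown is each factor mRNA with 100 reads or more in both treatments. Bars are 95% counting intervals and dashed lines mark 2-fold. EIF4G2, EIF5A, EIF1 and EEF1A1 lie to the left in both treatments, and EEF1A2, EEF1D and EIF3H lie to the right; with deposited CPM every ratio moves right by 2.50 with doxycycline and 0.82 untreated.

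An additive model over the 4 libraries (limma, treatment as covariate, 1 residual degree of freedom) tested 55 of the 58 genes. After Benjamini-Hochberg adjustment over 9579 genes, 21 were lower with EXOSC10 and EEF1A2 was higher. Among all genes tested 16.3% were lower and 1.27% higher. The treatments stand in for replicates here, and the labels do not say whether the libraries came from separate cultures, so these p-values measure only the spread between these samples. The lower calls were lost without either EXOSC10 library and mostly kept without either IgG library. Each of these fits left 1 library of the antibody concerned and had no treatment covariate. The median limma log2 ratio of the factor genes was −0.52 without the untreated EXOSC10 library, against 0.19 over all genes. Without the doxycycline EXOSC10 library it was −0.41, against 0.14. Without the untreated IgG library it was −0.44, against 0.07, and without the doxycycline IgG library −0.43, against 0.11. With deposited CPM none was lower.

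EEF1A1 (chromosome 6, 73515750 to 73521032, GRCh38.p14), the main isoform of the tRNA-delivering elongation factor, had 1888 scaled CPM in the doxycycline EXOSC10 library and 2914 in the untreated EXOSC10 library. With IgG the doxycycline library had 10019 and the untreated library 11252. The EXOSC10 and IgG values did not overlap. The log2 ratio of EXOSC10 over IgG was −2.41 (−2.43 to −2.38) with doxycycline, where deposited CPM gives 0.09, and −1.95 (−1.98 to −1.92) untreated. It did not pass in limma (−2.18 ± 0.76, SE; adjusted p = 0.0886).

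EEF1A2 (chromosome 20, 63488014 to 63499083), the isoform typical of muscle and neurons, ran the other way. It had 48.3 scaled CPM in the doxycycline EXOSC10 library and 69.1 in the untreated EXOSC10 library, against 30.2 with doxycycline and 30.6 untreated in IgG. Its log2 ratios were 0.68 (0.38 to 0.99) with doxycycline and 1.17 (0.82 to 1.54) untreated. It rose with EXOSC10 in limma (0.92 ± 0.27, SE; adjusted p = 0.0499), close to the threshold. The call was lost with median-of-ratios scaling, with deposited CPM or without the covariate. Fits without any 1 of the 4 libraries also lost it. They had no covariate either, so they cannot tell which omission lost the call. Because both isoforms are counted in the same library, their ratio does not depend on scaling. For each 100 reads of EEF1A1 there were 2.56 reads of EEF1A2 (2.37 to 2.76) in the doxycycline EXOSC10 library and 2.37 (2.13 to 2.63) in the untreated EXOSC10 library. With IgG the doxycycline library had 0.301 (0.246 to 0.365) and the untreated library 0.272 (0.216 to 0.339). The intervals of the EXOSC10 libraries lay wholly above those of the IgG libraries. How many other gene pairs did so was not counted. EEF1A2 lay at 20 to 50 scaled CPM in the level groups used further on, and EEF1A1 at 500 or more. Over all genes of these levels the median doxycycline ratios were −0.57 and −2.21.

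The other elongation factors also split. EEF1G, the gamma subunit of the exchange complex, had 240 and 339 scaled CPM in the doxycycline and untreated EXOSC10 libraries, against 904 and 807 in the doxycycline and untreated IgG libraries. It fell in limma (−1.58 ± 0.32, SE; adjusted p = 0.0093; 0.08 with deposited CPM). EEF1D, the delta subunit, had log2 ratios of 0.86 with doxycycline and 0.73 untreated, with both intervals above 0, and did not pass (adjusted p = 0.0703 in limma). EEF1B2, a nucleotide-exchanging subunit, had 0.01 and −0.42. EEF2, the translocase, had 497 and 608 scaled CPM in the doxycycline and untreated EXOSC10 libraries, against 814 and 838 in the doxycycline and untreated IgG libraries. Its log2 ratios of −0.71 and −0.46 did not pass (adjusted p = 0.258 in limma).

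In the eIF4F group 7 of 11 genes were lower with doxycycline (27% of all genes; group median −1.40). Of 9 with 100 reads, 5 were lower untreated (36.9% of all genes; group median −1.53). EIF4G2 (chromosome 11, 10797046 to 10808926) encodes DAP5, an eIF4G relative that lacks the eIF4E-binding region. It had 437 scaled CPM in the doxycycline EXOSC10 library and 806 in the untreated EXOSC10 library, against 4835 with doxycycline and 4045 untreated in IgG. These gave log2 ratios of −3.47 (−3.51 to −3.42) with doxycycline and −2.33 (−2.38 to −2.27) untreated, below 0 under every scaling tried, and it fell in limma (−2.90 ± 0.49, SE; adjusted p = 0.0038).

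Its relatives stood closer to the typical gene than EIF4G2 did. EIF4G1, the main scaffold, had log2 ratios of −1.40 with doxycycline (1.10 with deposited CPM) and −0.89 untreated. It too was lower with doxycycline and fell in limma (−1.14, adjusted p = 0.0167). EIF4G3 had −0.24 with doxycycline and 0.42 untreated. Within libraries, each 100 reads of EIF4G2 were matched by 24.3 reads of EIF4G1 in the doxycycline EXOSC10 library and 14.96 in the untreated EXOSC10 library, against 5.80 and 5.52 in the doxycycline and untreated IgG libraries. For EIF4G3 the figures were 4.35 and 2.38 with EXOSC10, against 0.465 and 0.353 with IgG, in the same order of treatment. The intervals of the EXOSC10 and IgG libraries did not overlap in either ratio, and other gene pairs were not counted. Over all genes of the levels of EIF4G2, EIF4G1 and EIF4G3, the median doxycycline ratios were −2.21, −1.96 and 0.34.

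EIF4E, the cap-binding protein itself, had 36.1 scaled CPM with doxycycline and 65.6 untreated in EXOSC10, against 208 with doxycycline and 190 untreated in IgG. It fell in limma (−2.03 ± 0.29, SE; adjusted p = 0.0021), as did EIF4E2 (−1.80, adjusted p = 0.0018), a cap-binding relative that represses translation. EIF4ENIF1, which carries eIF4E into the nucleus, also fell (−2.08, adjusted p = 0.0084), on 79 and 21 reads in the doxycycline and untreated EXOSC10 libraries, against 71 and 54 in the doxycycline and untreated IgG libraries. EIF4A1, the main helicase gene, had 225 and 279 scaled CPM in the doxycycline and untreated EXOSC10 libraries, against 579 and 860 in the doxycycline and untreated IgG libraries. The helicase genes EIF4A1 (−1.49, adjusted p = 0.0078 in limma) and EIF4A2 (−1.79, adjusted p = 0.0026) fell together. With deposited CPM the doxycycline ratios of EIF4E2, EIF4ENIF1, EIF4A1 and EIF4A2 were above 0, at 0.78, 0.60, 1.13 and 0.76.

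EIF4A2 had 69.4 and 70.3 reads per 100 of EIF4A1 in the doxycycline and untreated EXOSC10 libraries, against 89.9 and 82.0 in the doxycycline and untreated IgG libraries, a far smaller gap than between the eIF4G genes. EIF4E2 had 146 and 102 reads per 100 of EIF4E in the doxycycline and untreated EXOSC10 libraries. In the doxycycline and untreated IgG libraries it had 82.9 and 130, so this pair did not separate by antibody. EIF4A3, the helicase of the exon junction complex, had −0.47 with doxycycline. EIF4B and EIF4H, which stimulate the helicase, had 0.02 and −0.53 with doxycycline and −0.95 and −0.18 untreated, and neither passed.

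**Figure D2:**
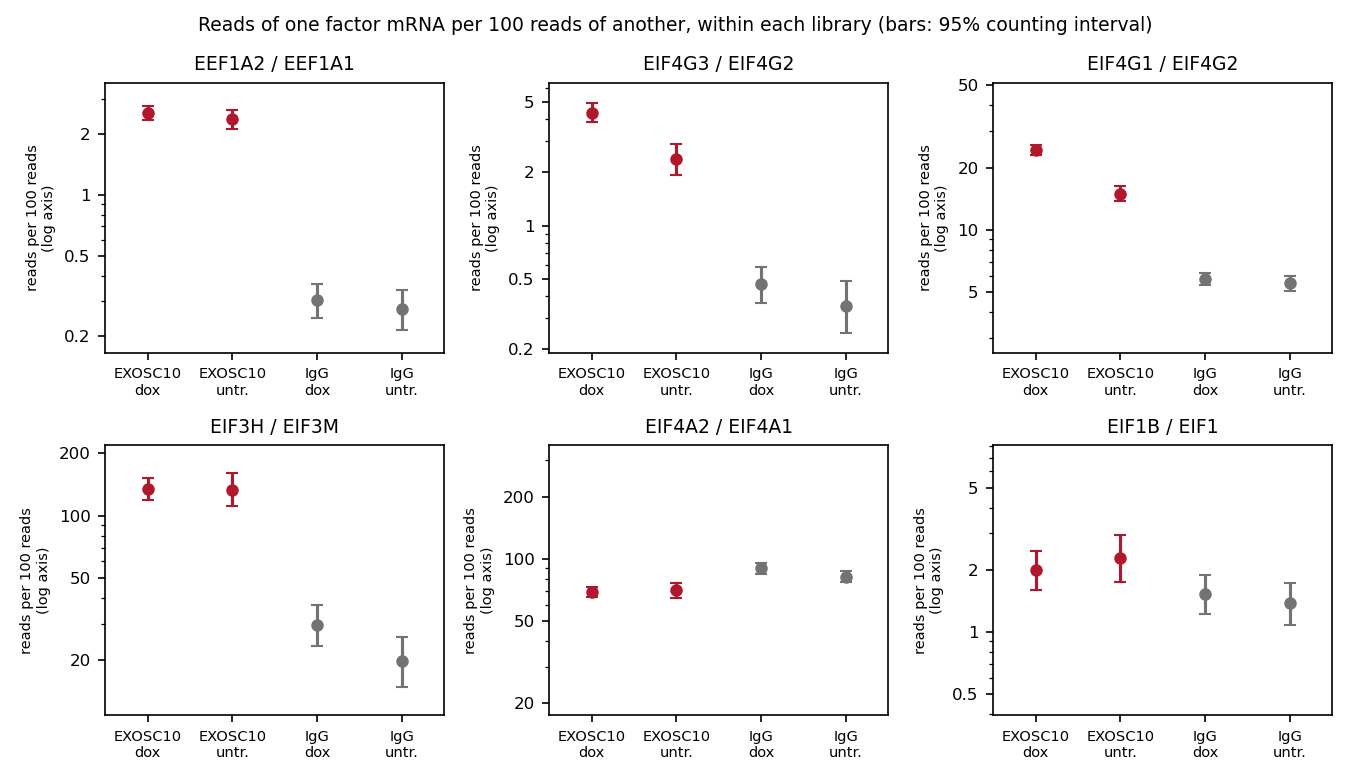
Reads of the first gene per 100 reads of the second within each library (log axes with different ranges), with 95% counting intervals; red points are EXOSC10 libraries and grey points IgG libraries. The EEF1A2 to EEF1A1, EIF4G3 to EIF4G2, EIF4G1 to EIF4G2 and EIF3H to EIF3M ratios are higher in both EXOSC10 libraries, with no overlap, while EIF4A2 to EIF4A1 and EIF1B to EIF1 differ far less. EIF4E2 to EIF4E, which did not separate by antibody, is not drawn, and EIF3H to EIF3M was chosen after its values were seen.

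The eIF3 complex was divided among its own subunits. Of its 14 genes 6 were lower with doxycycline, beside 27% of all genes, and none higher, and the median was −0.45. In untreated cells 3 were lower, a smaller share than the 36.9% of all genes, EIF3H was higher and the median was −0.33. In limma EIF3M (−1.62, adjusted p = 0.0025), EIF3D (−1.48, adjusted p = 0.0037), EIF3J (−1.27, adjusted p = 0.0132), EIF3C (−1.23, adjusted p = 0.0116), its near-identical copy EIF3CL (−1.21, adjusted p = 0.0121) and EIF3I (−1.05, adjusted p = 0.0222) fell, all 6 turning above 0 with deposited CPM.

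EIF3M and EIF3H both encode subunits of the core of the complex. EIF3M had 32.1 and 39.8 scaled CPM in the doxycycline and untreated EXOSC10 libraries, against 99.9 and 122 in the doxycycline and untreated IgG libraries. EIF3H had 43.0 and 53.1 in the doxycycline and untreated EXOSC10 libraries, against 29.6 and 24.1 in the doxycycline and untreated IgG libraries. EIF3H had log2 ratios of 0.54 (0.23 to 0.86) with doxycycline and 1.13 (0.74 to 1.56) untreated, and did not pass in limma (0.84, adjusted p = 0.0836). For each 100 reads of EIF3M there were 134 of EIF3H in either EXOSC10 library, against 29.6 in the doxycycline and 19.7 in the untreated IgG library. This last pair was chosen after its values were seen. EIF3B and EIF3F also had both intervals above 0, while EIF3L was near 0 in both treatments, at −0.06 and −0.05. EIF3D, whose protein can bind the cap of some mRNAs, had 47.7 and 55.8 scaled CPM in the doxycycline and untreated EXOSC10 libraries, against 120 and 173 in the doxycycline and untreated IgG libraries. The groups did not overlap. Other subunits differed between treatments: EIF3A, the largest scaffold subunit, had −0.84 with doxycycline and −0.04 untreated, EIF3E had 0.71 and −0.39, and EIF3G, an RNA-binding subunit, had 0.89 and 0.25. These differences between treatments were not tested.

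Among start codon factors, EIF1, which keeps the scanning ribosome open, had 306 scaled CPM in the doxycycline EXOSC10 library and 516 in the untreated EXOSC10 library, against 1642 with doxycycline and 2113 untreated in IgG. It fell in limma (−2.23 ± 0.36, SE; adjusted p = 0.0031), as did its paralog EIF1B (−1.65, adjusted p = 0.0138) and EIF5 (−1.26, adjusted p = 0.0212), the GTPase activator of eIF2. The doxycycline ratios of these 3 genes were above 0 with deposited CPM, at 0.07, 0.45 and 0.68. EIF1AX had 0.13 with doxycycline. The subunit-joining factor EIF5B and the anti-association factor EIF6 stayed within 2-fold, at −0.33 and −0.19 with doxycycline and −0.42 and 0.69 untreated.

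EIF5A, the hypusine-bearing factor that eases stalled elongation, had 443 and 715 scaled CPM in the doxycycline and untreated EXOSC10 libraries, against 2232 and 3404 in the doxycycline and untreated IgG libraries. It fell in limma (−2.29 ± 0.40, SE; adjusted p = 0.0047). EIF5AL1, an intronless near copy, followed it at 46.7 to 50.7 reads per 100 of EIF5A in every library, so their reads cannot be held apart. Summed, they had −2.36 with doxycycline and −2.26 untreated. With deposited CPM both genes stood just above 0 with doxycycline, at 0.16 and 0.07.

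The eIF2 subunits differed. EIF2S1, the alpha subunit phosphorylated under stress, fell in limma (−1.37, adjusted p = 0.0078; 0.28 with deposited CPM), while EIF2S2, the beta subunit, did not pass (−0.67, adjusted p = 0.145). The gamma subunit has a near copy, and they moved apart. EIF2S3B had 5.25 scaled CPM in the doxycycline EXOSC10 library and 16.0 in the untreated EXOSC10 library, against 62.9 with doxycycline and 40.1 untreated in IgG, and fell in limma (−2.42, adjusted p = 0.0089). EIF2S3 had −0.16 with doxycycline and 0.82 untreated. Summed, they had −2.09 and −0.53, so the value depends on how reads were divided between the copies. EIF2A, which acts apart from eIF2, had 0.88 (0.30 to 1.54) with doxycycline. The eIF2B genes, for the exchange factor of eIF2, had few reads, and only EIF2B1 and EIF2B5 reached 100 with doxycycline, at 1.25 and −0.80. EIF2B1, the alpha subunit gene, had 102 and 37.7 reads in the doxycycline and untreated EXOSC10 libraries, against 10 and 7 in the doxycycline and untreated IgG libraries. EIF2B5, for the catalytic epsilon subunit, had 93 and 58 reads with EXOSC10, against 40 and 39 with IgG. EIF2B2, EIF2B3 and EIF2B4 had 4.5 to 14 reads in an IgG library, apart from EIF2B3 with no read in the untreated IgG library, and none of the 5 genes passed in limma.

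The modifying enzymes were the least covered genes. EEF1AKNMT, the older name of METTL13, which methylates eEF1A, had 199 and 112 reads in the doxycycline and untreated EXOSC10 libraries, against 97 and 98 in the doxycycline and untreated IgG libraries. Its log2 ratio of EXOSC10 over IgG was −0.99 with doxycycline and −0.81 untreated, and it did not pass in limma (adjusted p = 0.073). EEF2K, the kinase that inhibits eEF2, had 0.36 with doxycycline and stayed below 100 reads untreated. The 7 genes with fewer than 100 reads in the EXOSC10 libraries together were EEF1E1, EEF1AKMT2, EEF1AKMT3, EEF1AKMT4, EEF2KMT, EIF1AD and EIF2D. EIF2D, whose protein can deliver tRNA without eIF2, had 68 and 6.9 reads in the doxycycline and untreated EXOSC10 libraries, against 7 and 19 in the doxycycline and untreated IgG libraries, and its counting interval for doxycycline with EXOSC10 lay above 0 (1.73, 0.75 to 3.25). EEF1E1, for a protein of the multi-tRNA synthetase complex, had an EXOSC10 over IgG log2 ratio of −0.98 (−1.66 to −0.35) with doxycycline. These genes are below the read minimum and enter no count.

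Gene by gene, the ratios of the treatments, which come from separate libraries, ran together. Over the 41 factor genes with 100 reads in both, r was 0.84 and rho 0.86, beside 0.79 and 0.81 over 3586 genes. Over the 20 factor genes with whole reads in every library, r was 0.87 and rho 0.89. The points share their sequence and the way reads were divided between genes.

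The EXOSC10 over IgG ratios followed the level of the mRNA, among factor genes and among all genes. Against the mean level in the libraries of the other treatment, which share no reads with the ratio, the doxycycline ratio had r = −0.65 and rho = −0.63 over 48 factor genes, and r = −0.57 and rho = −0.56 over 6271 genes. The untreated ratio had r = −0.67 and rho = −0.69 over 41 factor genes, and r = −0.35 and rho = −0.40 over 3606 genes. These are correlations across genes, which are not replicates. At 500 scaled CPM or more, 8 factor genes had a median doxycycline ratio of −2.37, against −2.21 over all genes of that level. Between 100 and 500 it was −1.61 over 8 factor genes, against −1.96, and between 50 and 100 it was −0.99 over 6, against −1.29. Between 20 and 50 scaled CPM, 16 factor genes had −0.02, against −0.57. Below 20, 10 had −0.01, against 0.34. Untreated, from the highest level down, the medians were −2.03, −1.24, −0.95, −0.41 and 0.53. Over all genes they were −1.72, −1.63, −1.03, −0.49 and 0.07. Set against genes of their own level, the factor mRNAs thus stood on either side. Their medians were lower at 500 or more and higher between 20 and 500 in both treatments. EEF2 was above the upper quartile of its level with doxycycline (−1.80) and EIF4G2 was below the lower quartile (−2.61).

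**Figure D3:**
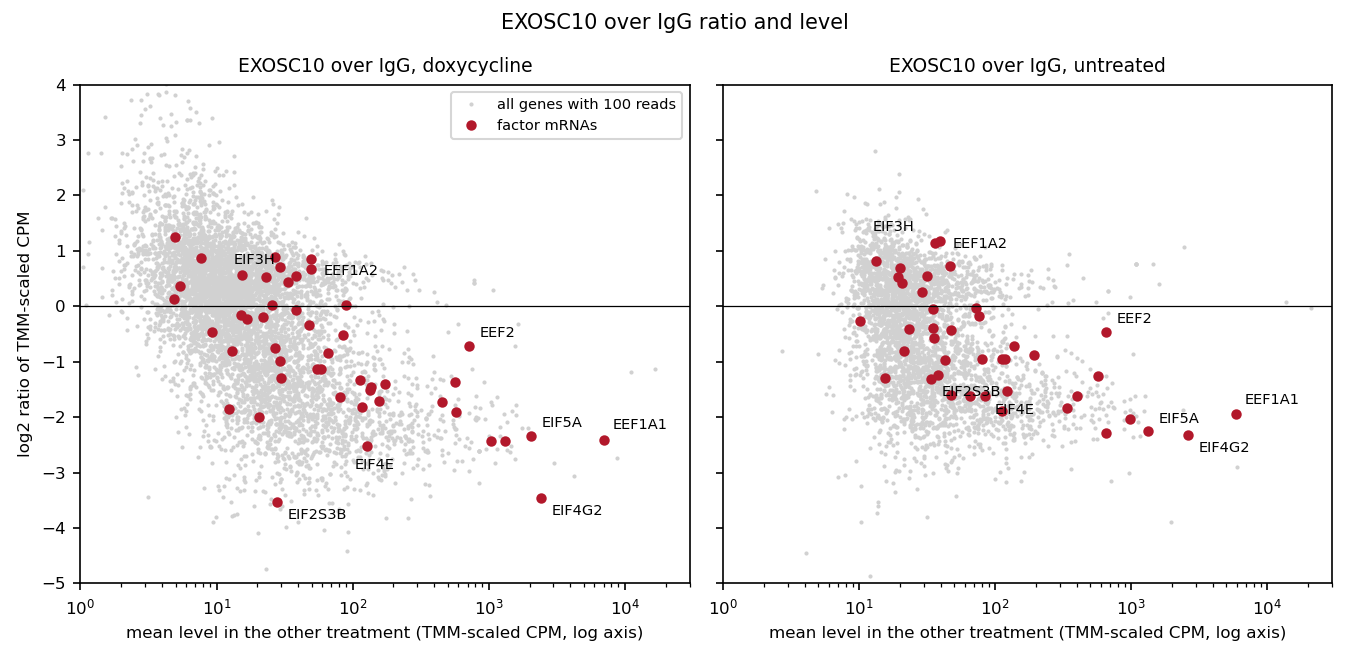
Log2 ratio of EXOSC10 over IgG (TMM-scaled CPM) against the mean level in the other treatment (log axis) with doxycycline (left) and untreated (right); grey points are all genes with 100 reads and red points the factor mRNAs. The abundant EEF1A1, EIF4G2 and EIF5A lie low in both panels, and EEF2 lies above the upper quartile of its level with doxycycline only; genes beyond the axes are not drawn.

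In the primary comparison, doxycycline against untreated with EXOSC10, no factor mRNA was 2-fold higher and 1 was lower. Of 6581 genes, 5.83% were higher and 4.19% lower. The 1 was EIF2S3B, at −1.57 (−2.08 to −1.14), and summed with EIF2S3 it came to −0.97. Smaller differences leaned one way. Of 51 factor genes with 100 reads, 29 had a counting interval wholly below 0 and 4 above it. Of all 6581 genes, 1943 had an interval wholly below 0 and 1377 above it. The median was −0.31 over the factor genes, against −0.06 over all genes. With deposited CPM every ratio moves up by 1.04 and 16 factor mRNAs were higher. Fewer cells holding an mRNA and less of that mRNA per cell cannot be told apart in such bulk libraries, nor can either from a different recovery by the antibody.

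After EIF2S3B the lowest values were EIF1B at −0.92, EIF4G2 at −0.88 (−0.94 to −0.83), EIF4E at −0.86, EIF5AL1 at −0.78, EIF1 at −0.75, EIF2B5 at −0.72, EIF5A at −0.69, EIF4A3 at −0.67, EIF3CL at −0.64 and EEF1A1 at −0.63 (−0.66 to −0.60). The 4 with intervals above 0 were EIF2A at 0.91 (0.43 to 1.47), EIF3E at 0.77 (0.50 to 1.05), EIF4B at 0.39 (0.21 to 0.58) and EIF3G at 0.36 (0.10 to 0.64). With IgG, none of 40 factor genes was 2-fold higher or lower, where 2.74% and 3.8% of 3024 genes were. The median was −0.13, against −0.07 over all genes, with 9 intervals above 0 and 12 below. Over all 3024 genes 566 intervals lay above 0 and 870 below. In limma no gene passed for doxycycline, where 453 genes and none of the 55 factor genes had an unadjusted p under 0.05.

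**Figure D4:**
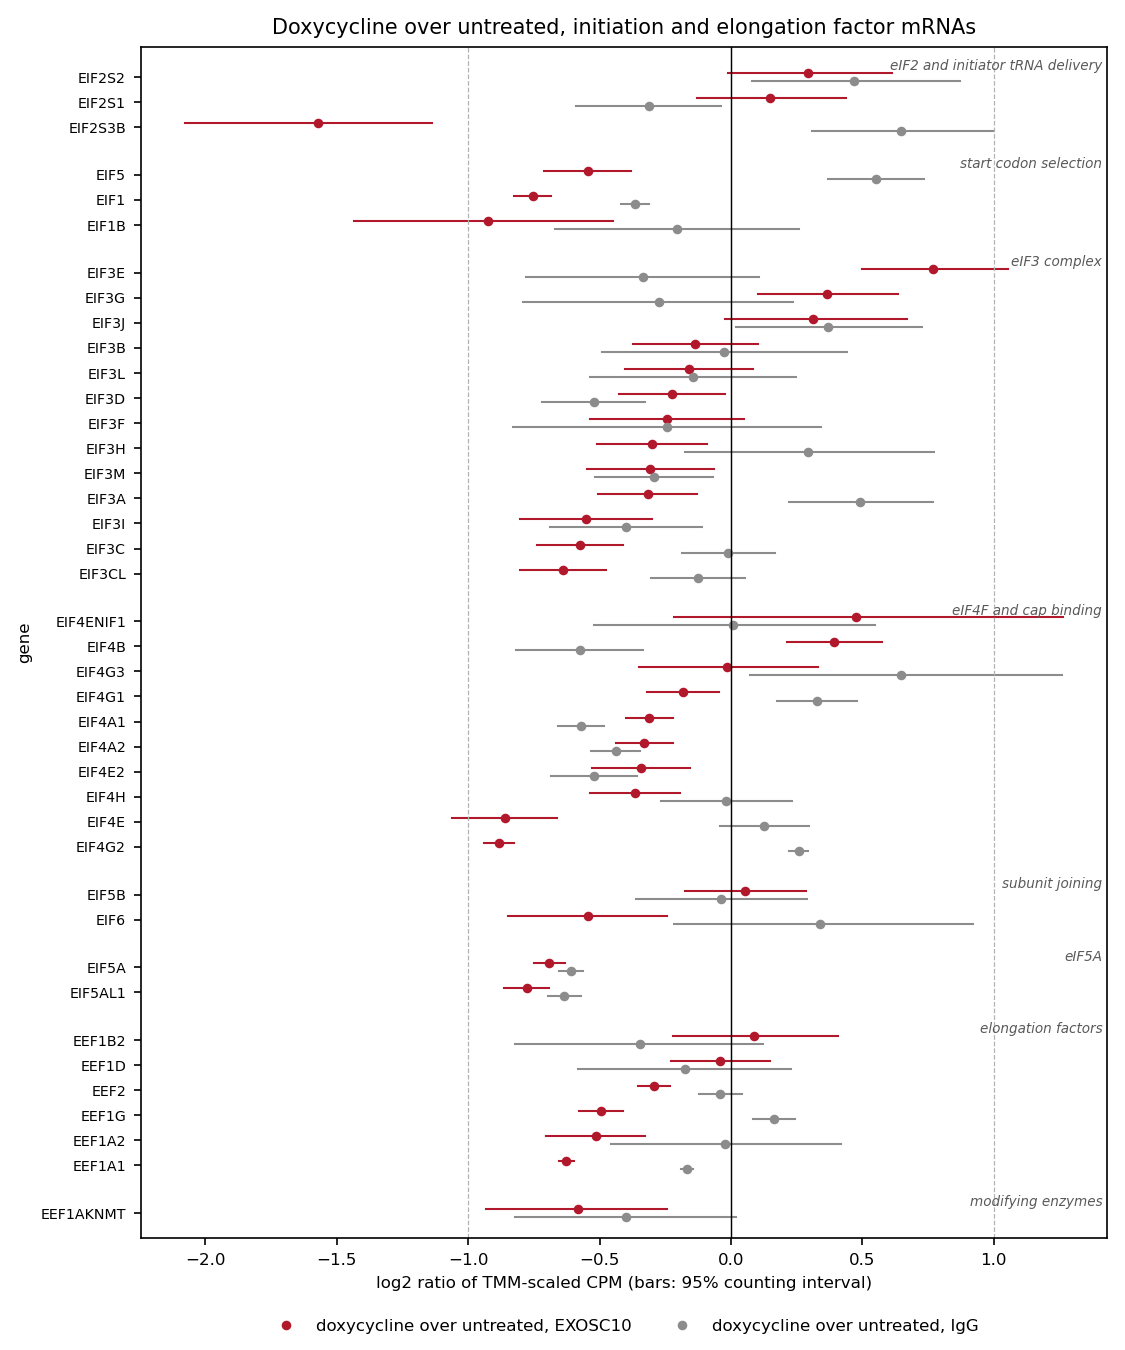
Log2 ratio of TMM-scaled CPM, doxycycline over untreated, with EXOSC10 (red) and with IgG (grey), for factor mRNAs with at least 100 reads in both pairs of libraries; bars are 95% counting intervals and dashed lines mark 2-fold. All but EIF2S3B lie within 2-fold; EIF4G2, EIF4E and EIF5 lie left of 0 with EXOSC10 and right of it with IgG, while with deposited CPM the EXOSC10 points move right by 1.04 and the IgG points left by 0.64.

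Transcription starts of the factor genes, taken from RefSeq (GRCh38.p14), were matched for 46 of the 58. The longest run of pyrimidines within 20 bases of a start had a median of 7 in these genes, against 5 in 27305 genes. A run of 9 or more was present in 15 (32.6%, against 14.6% of genes). CTTTT on the gene strand was present in 11 (23.9%, against 6.07%) and CTTTC in 5 (10.9%, against 6.96%). The 30 bases around the start are shown for 8 genes, 15 before it and 15 from it, to set long pyrimidine runs, in TOP mRNAs (EEF1A1, EEF1B2, EEF2 and EIF3F) and outside the TOP list (EIF3D and EIF3M), beside abundant factors with shorter runs (EIF1 and EIF4G2); capitals mark the longest run in the shown bases.
EEF1A1, chr6:73521018-73521047, minus strand: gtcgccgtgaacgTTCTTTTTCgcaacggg
EEF1B2, chr2:206159880-206159909, plus strand: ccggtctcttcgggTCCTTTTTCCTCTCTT
EEF2, chr19:3985449-3985478, minus strand: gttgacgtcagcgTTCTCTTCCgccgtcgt
EIF3F, chr11:7987322-7987351, plus strand: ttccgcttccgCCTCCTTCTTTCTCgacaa
EIF3D, chr22:36529152-36529181, minus strand: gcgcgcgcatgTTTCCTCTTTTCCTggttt
EIF3M, chr11:32583816-32583845, plus strand: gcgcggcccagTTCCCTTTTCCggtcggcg
EIF1, chr17:41688870-41688899, plus strand: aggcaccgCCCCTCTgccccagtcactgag
EIF4G2, chr11:10807982-10808011, minus strand: gaggttgtcggaagcaCTTCCCTaacttgc

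Genes with such starts lay on both sides of 0. EIF3D and EIF3M fell in limma, EEF1A1 had the low ratios given above, and EEF1B2 and EIF3F had 0.01 and 0.53 with doxycycline. EIF1 and EIF4G2, with shorter runs, were among the lowest. The median doxycycline ratio was −0.71 over 15 genes with a run of 9 or more and −1.30 over 23 with shorter runs, and the untreated medians were −0.95 over 14 and −1.29 over 17. For the 9 genes of the classical TOP list the median was 0.02 with doxycycline and −0.42 untreated, against −1.13 and −0.95 for the factor genes outside it. EEF1A1 and EEF1G were the 2 lower TOP members in either treatment, and EEF1G alone fell in limma. Read-level starts were not used, so which start these cells use was not measured.

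Among termination and recycling genes, 4 of 8 fell with EXOSC10 in limma and none rose, beside 16.3% lower and 1.27% higher over all genes tested: ETF1, the release factor (−2.38, adjusted p = 0.0029), GSPT1, its GTPase partner (−1.95, adjusted p = 0.0026), ABCE1, which splits ribosomes (−1.40, adjusted p = 0.0078), and HBS1L (−1.10, adjusted p = 0.0313), a ribosome rescue factor. With doxycycline 7 had 100 reads, 4 were lower (27% of all genes), and the median log2 ratio of EXOSC10 over IgG was −1.21. The 4 had −3.20 (ETF1), −2.43 (GSPT1), −1.72 (ABCE1) and −1.21 (HBS1L) with doxycycline. With deposited CPM, which raises these ratios by 2.50, only ETF1 of the 4 stays below 0. In untreated cells 5 had 100 reads, 4 were lower (36.9% of all genes), and the median was −1.09.

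Of 19 translational control genes tested, 3 fell in limma and none rose, a share near the 16.3% of all genes that were lower. They were RPS6KB1, a kinase downstream of mTOR (−2.38, adjusted p = 0.0015), the stress-induced transcription factor gene ATF4 (−1.53, adjusted p = 0.0032), and LARP1, which binds TOP mRNAs (−0.97, adjusted p = 0.0313). Their EXOSC10 over IgG ratios with doxycycline, −2.03, −1.70 and −1.18, turn above 0 with deposited CPM, which adds 2.50. By EXOSC10 over IgG with doxycycline, 18 had 100 reads, 3 were higher (13.3% of all genes) and 3 lower (27%). Their median was 0.49, against 0.01 over all genes. Untreated, 11 had 100 reads, 1 was higher (4.96%) and 2 lower (36.9%), with a median of 0.05, against −0.48. EIF4EBP1, which encodes a repressor of eIF4E, had an EXOSC10 over IgG log2 ratio of 1.09 (0.46 to 1.84) with doxycycline. Its paralog EIF4EBP2 had −0.44 (−0.80 to −0.07) with doxycycline and −0.24 (−0.83 to 0.36) untreated. For doxycycline over untreated with EXOSC10, EIF2AK2, the RNA-activated eIF2 kinase, was the only gene of this list 2-fold higher, at 1.49 (0.95 to 2.17). It had 1.47 (0.58 to 2.54) with IgG on 46 and 12.4 reads in the doxycycline and untreated libraries. RPTOR, a subunit of mTOR complex 1, was the only one lower for doxycycline over untreated with EXOSC10, at −1.31. Of 9 factor modification genes tested, DHPS, which makes hypusine on eIF5A, rose with EXOSC10 (2.84, adjusted p = 0.0413 in limma) and none fell. DHPS had 118 and 73.9 reads in the doxycycline and untreated EXOSC10 libraries, against 0.8 and 13.9 in the doxycycline and untreated IgG libraries, so the size of its difference rests on few reads. None of 8 mitochondrial translation factor genes passed in limma. For the antibody 2 of them, TUFM and MTRF1L, had an unadjusted p under 0.05 in limma, as did 2944 of all 9579 genes.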

How the data were processed

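The authors deposited a table of CPM values with a constant of 0.0001 on every entry, 24015 entries in all; STAR, Partek and build hg38 are named per the submitters' processing notes, with no version. The constant was taken off and entries of a symbol were summed. Reads were estimated as CPM divided by the step of 1 read (0.132 to 0.269 CPM). Since 67.6% to 74.0% of genes were whole within 0.05 reads, no count model was used. Scaling was by TMM (30% of ratios and 5% of levels trimmed). Log2 ratios used a pseudocount of 0.2 CPM, which understates changes of low genes, and exact Clopper-Pearson 95% intervals. limma 3.58.1 (R 4.3.3) was fitted with a trend to genes that reached 10 reads in 2 libraries or more, with Benjamini-Hochberg adjustment at 0.05, and tested on simulated data. Python 3.11.15 with numpy 2.4.6, pandas 2.3.3 and scipy 1.17.1 did the rest.

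The genes and lists were chosen with earlier results of these data known. Named were genes of a role group with 100 reads, the 5 highest and lowest per comparison, limma calls and paralogs, and at most 4 past a threshold per other list. Of the 58 symbols 57 are current and EEF1AKNMT is an older name of METTL13. In the RefSeq annotation 35 of them overlap another gene and 11 overlap one that was also in the table, and strand use is not given in the sources used here. Alternatives were other scalings, pseudocounts and read minimums, thinning, 1 entry per symbol, whole-read genes only, each library left out and, added after seeing the data, copies summed.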

Additional observations from a re-analysis of the deposited data

Results flagged for a closer look

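For 7 of 40 factor mRNAs, the doxycycline ratio had a counting interval wholly on one side of 0 with EXOSC10 and wholly on the other with IgG; among all genes 356 of 2943 (12.1%) did so. The difference between the antibodies was not tested, since each group has 1 library. The EXOSC10 minus IgG difference in log2 ratio was −2.22 for EIF2S3B (−1.57 with EXOSC10 and 0.65 with IgG), −1.14 for EIF4G2 (−0.88 and 0.26), −1.09 for EIF5 (−0.54 and 0.55), −0.81 for EIF3A (−0.32 and 0.49), −0.66 for EEF1G (−0.49 and 0.16) and −0.51 for EIF4G1 (−0.18 and 0.33). EIF4B ran the other way, at 0.97 (0.39 with EXOSC10 and −0.57 with IgG). With deposited CPM, which moves the EXOSC10 ratios up by 1.04 and the IgG ratios down by 0.64, EEF1G, EIF3A, EIF4G1, EIF4G2 and EIF5 stood above 0 with EXOSC10 and below 0 with IgG, while EIF2S3B and EIF4B kept their signs.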

How the results depend on the processing

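No paired analysis was possible because the labels carry no replicate numbers; the additive limma test compares the antibodies within treatments. The counts depend most on scaling. With deposited CPM the members higher and lower by 2-fold were 16 and 0 for doxycycline with EXOSC10 (0 and 1 in the report), 0 and 10 for doxycycline with IgG (0 and 0), 33 and 1 for EXOSC10 over IgG with doxycycline (1 and 22) and 9 and 7 untreated (2 and 16). With scaling to reads outside ribosomal RNA they were 1 higher with EXOSC10, 15 and 7 for EXOSC10 over IgG with doxycycline, and 10 and 3 untreated. With the upper quartile 1 was higher in EXOSC10 and 4 in EXOSC10 over IgG with doxycycline, and with median-of-ratios factors 2 were lower in EXOSC10. A minimum of 20 reads gave 2 higher in EXOSC10, 1 higher and 2 lower in IgG, 4 higher for EXOSC10 over IgG with doxycycline and 6 untreated. A minimum of 500 reads gave 0 lower in EXOSC10 and 0 higher for EXOSC10 over IgG in either treatment, with the members' median less that of all genes at −0.29 with doxycycline (−0.84 in the report) and −0.027 untreated (−0.41), over fewer genes. The highest entry of each symbol gave 1 higher and 7 lower in EXOSC10, 1 higher in IgG, 2 higher for EXOSC10 over IgG with doxycycline and 4 untreated. Genes with whole reads only gave 0 lower in EXOSC10, 0 higher and 11 lower for EXOSC10 over IgG with doxycycline, and 9 lower untreated; summed copies gave 0 lower in EXOSC10. The cause was not tested.

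In limma the antibody calls (1 higher, 21 lower) were 2 and 0 with deposited CPM, 17 and 6 with reads outside ribosomal RNA, 0 higher with median-of-ratios factors, 3 higher with a pseudocount of 1 CPM, 4 higher without the filter and 0 higher without the covariate. Leaving out a library gave 0 to 2 higher and 0 to 19 lower, 0 lower without either EXOSC10 library. Signs turned with deposited CPM. For EXOSC10 over IgG with doxycycline the ratios became 0.090 for EEF1A1, 0.59 for EEF1G, 0.075 for EIF1, 0.45 for EIF1B, 1.35 for EIF2S1, 0.98 for EIF3C, 1.03 for EIF3CL, 1.16 for EIF3D, 1.36 for EIF3I, 1.19 for EIF3J, 0.86 for EIF3M, 1.13 for EIF4A1, 0.76 for EIF4A2, 0.78 for EIF4E2, 0.60 for EIF4ENIF1, 1.10 for EIF4G1, 0.68 for EIF5, 0.16 for EIF5A and 0.069 for EIF5AL1. In limma they became 0.078 for EEF1G, 0.28 for EIF2S1, 0.43 for EIF3C, 0.45 for EIF3CL, 0.18 for EIF3D, 0.60 for EIF3I, 0.38 for EIF3J, 0.030 for EIF3M, 0.17 for EIF4A1, 0.52 for EIF4G1 and 0.39 for EIF5, and EIF3I became 0.0034 with reads outside ribosomal RNA.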
